A study of Equus caballus with 15 samples.

Results

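Expression of the genes that drive DNA replication and cell division was followed in equine macrophages across 5 culture conditions. A list of 57 genes was matched by gene symbol to the 16932 genes with deposited values, and 53 of them were found. The list was divided by role into 28 replication genes (origin licensing and helicase, DNA synthesis and nucleotide supply, the G1/S switch, and maintenance of DNA methylation and integrity) and 29 mitotic genes (the G2/M switch, spindle checkpoint, kinetochore, spindle motors and chromosome structure), of which 26 and 27 were found. E2F8, CHEK1, CCNA2 and MKI67 were not analysed here. All 53 listed genes passed the filter of a mean of at least 1 CPM (CPM is the reads of a gene scaled to a common total of reads counted on genes in each library) over the 15 libraries, as did 11628 genes in all.

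The macrophages were grown from blood monocytes of 2 horses for 5 days with M-CSF, a macrophage growth factor, at 30 ng/ml. They were left untreated, were activated with IL-1ß at 10 ng/ml, or received IL-1ß together with an orthobiologic therapy (OT) that made up 25% of the medium for 24 h. The cells were then washed, and the sources differ on whether they were lysed directly, as the sample labels read, or after another 24 h in medium without IL-1ß or OT, as the study's text reads. The OTs were autologous conditioned serum (ACS), lysed plasma rich in platelets (PRP lysate) and conditioned medium of bone marrow mesenchymal stromal cells (MSC-CM), so IL-1ß was present in all 3 OT groups and M-CSF in every group. Each group had 3 libraries of polyadenylated RNA, and which of the 2 horses gave the macrophages of each library was not identified here. The OTs came from 3 donor horses, whereas the untreated and IL-1ß libraries were technical replicates, so p-values measured only the spread between these libraries.

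A cell that enters division first loads the MCM helicase onto replication origins with the help of CDC6 and CDT1, then fires them and copies its DNA with PCNA as the sliding clamp and with nucleotides that ribonucleotide reductase (RRM1 and RRM2) supplies. E2F transcription factors switch on this set, whereas FOXM1 and MYBL2 drive the later set for mitosis, in which CDK1 with cyclin B starts division and the Aurora and Polo-like kinases, the kinetochore and kinesin motors separate the chromosomes. Mature macrophages are known as mostly non-dividing cells, although M-CSF is a mitogen for their precursors, while activated lymphocytes divide readily.

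The libraries held between 28410734 and 47894071 reads on genes, with a median of 37215810. IL-1ß library 3 and PRP lysate library 1 stood apart from the other 13, at -103.1 and -51.7 on a first principal component where the others lay between -20.7 and 26.6. Leaving out both was an analysis chosen after seeing the data. Of the macrophage markers, CD68 lay between 1340 and 2157 CPM and MRC1 between 515 and 3394 CPM in the 15 libraries, whereas CD14 did not exceed 4.3 CPM and ITGAM did not exceed 3.5 CPM. All 10 T cell markers were detected in every library, at a summed 863 to 2499 CPM. The 5 listed B cell markers summed to 12.2 to 48.2 CPM, and the 6 listed stromal markers summed to no more than 3.15 CPM. A larger share of dividing cells and more of these transcripts per cell cannot be told apart in bulk RNA.

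The level of the 53 genes together was lowest without treatment. Their summed level was 3218 to 3679 CPM without treatment, 4537 to 4662 CPM with IL-1ß alone, 5193 to 5806 CPM with MSC-CM, 4244 to 6148 CPM with PRP lysate and 4064 to 4923 CPM with ACS. The 12 treated libraries therefore all lay above the 3 untreated ones. For 50 of the 53 genes the untreated group had the lowest mean CPM of the 5 groups, and for 36 genes the MSC-CM group had the highest, followed by PRP lysate for 13, IL-1ß alone for 3 and ACS for 1. Without the pair of libraries that stood apart, MSC-CM had the highest mean CPM for 44 genes and the untreated group the lowest for 51.

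**Figure D1:**
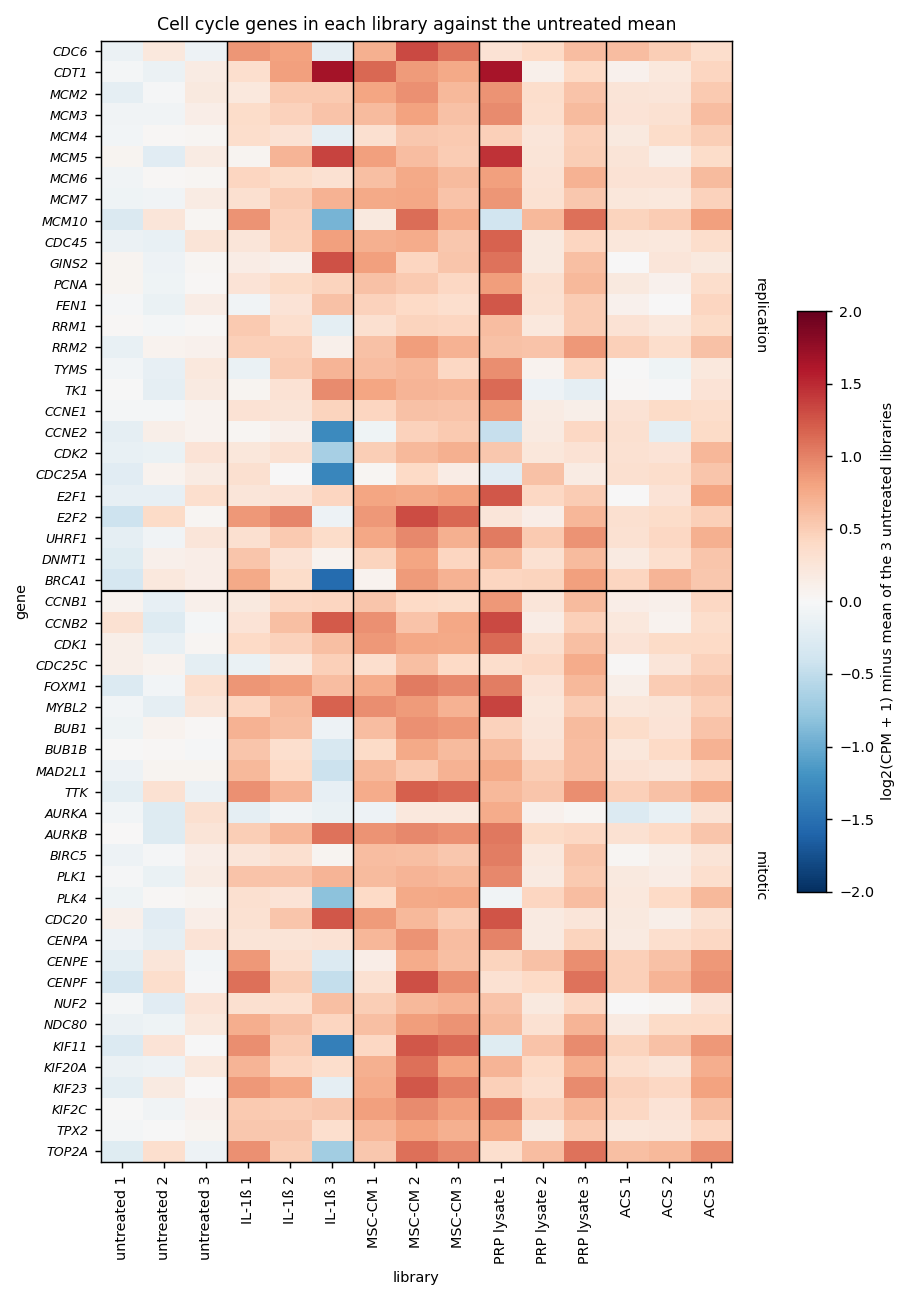
Heat map of the 53 genes (rows, replication genes above the line and mitotic genes below it) in the 15 libraries (columns). Colour gives log2(CPM + 1) minus the mean of the 3 untreated libraries. MSC-CM libraries are mostly red, with 46, 52 and 51 of the 53 genes above all untreated libraries, while IL-1ß 3 and PRP lysate 1 mix strong red with blue rows.

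Among the helicase subunits, MCM2 (ENSECAG00000019631, chromosome 16, 1610982 to 1636542 in EquCab3.0) was at 113, 126 and 147 CPM in the untreated libraries, 148, 184 and 184 with IL-1ß alone, 223, 242 and 200.5 with MSC-CM, 238, 163 and 190.0 with PRP lysate and 153, 152 and 184 with ACS. Each treated library was above the highest untreated one, and the 3 MSC-CM libraries were above all IL-1ß and all ACS libraries. MCM3 (ENSECAG00000020506, chromosome 20, 50951042 to 50969305), another subunit, was at 136, 135 and 157 CPM in the untreated libraries, 183, 197 and 213 with IL-1ß alone, 222, 249 and 215 with MSC-CM, 274, 180.3 and 221 with PRP lysate and 171, 176 and 218 with ACS. MCM7 (ENSECAG00000015149, chromosome 13, 8114062 to 8121615) was at 178, 181 and 213 CPM in the untreated libraries, 238, 272 and 309.5 with IL-1ß alone, 323, 327 and 282 with MSC-CM, 352, 234 and 278 with PRP lysate and 222, 220.0 and 263 with ACS. Both genes had every treated library above the untreated range. MCM5 (ENSECAG00000014368, chromosome 28, 34024683 to 34043644) was at 194, 160.1 and 208 CPM in the untreated libraries, 194, 300.4 and 475 with IL-1ß alone, 329, 288 and 265 with MSC-CM, 511, 223 and 262 with PRP lysate and 222, 202 and 241 with ACS. It behaved differently within groups: IL-1ß 3 and PRP lysate 1 were far above the other libraries of their groups, and IL-1ß 1 lay inside the untreated range.

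PCNA (ENSECAG00000013162, chromosome 22, 18406488 to 18412680), the sliding clamp that holds DNA polymerase on its template, was at 147, 134 and 145 CPM in the untreated libraries, 171, 185 and 193 with IL-1ß alone, 213, 204 and 190.0 with MSC-CM, 253, 176 and 223 with PRP lysate and 163, 151 and 182 with ACS. RRM2 (ENSECAG00000007464, chromosome 15, 84621080 to 84637969), the regulated subunit of ribonucleotide reductase, was at 88.9, 103 and 104 CPM in the untreated libraries, 137, 138 and 105 with IL-1ß alone, 149, 178 and 161 with MSC-CM, 148, 146 and 179.9 with PRP lysate and 137, 127 and 149 with ACS. For both genes the untreated libraries were the 3 lowest, and for RRM2 the MSC-CM and the PRP lysate libraries also lay above the 3 IL-1ß libraries. UHRF1 (ENSECAG00000013193, chromosome 7, 3456650 to 3487265), which brings the maintenance methyltransferase DNMT1 to newly copied DNA, was at 126, 137 and 171 CPM in the untreated libraries, 179.8, 208 and 186 with IL-1ß alone, 245, 281 and 236 with MSC-CM, 295, 208 and 269 with PRP lysate and 178, 192 and 237 with ACS. Its untreated libraries were again the 3 lowest, and its MSC-CM libraries lay clearly above the IL-1ß libraries, with the lowest PRP lysate library only just above them.

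Of the G1/S regulators, CDK2 (ENSECAG00000021177, chromosome 6, 74578450 to 74582969), the kinase that fires origins, was at 21.9, 22.1 and 29.5 CPM in the untreated libraries, 28.6, 30.2 and 14.97 with IL-1ß alone, 34.7, 38.7 and 40.3 with MSC-CM, 35.8, 28.7 and 30.0 with PRP lysate and 30.2, 29.7 and 39.0 with ACS. CDC25A (ENSECAG00000016336, chromosome 16, 40395060 to 40420433), the phosphatase that activates CDK2, was at 13.2, 16.6 and 17.6 CPM in the untreated libraries, 19.8, 15.8 and 5.77 with IL-1ß alone, 16.2, 21.0 and 17.4 with MSC-CM, 13.3, 24.1 and 17.6 with PRP lysate and 19.9, 20.4 and 23.5 with ACS. Both were lowest in IL-1ß 3, MSC-CM libraries lay above the IL-1ß range for CDK2, and ACS libraries lay just above it for CDC25A. CCNE2 (ENSECAG00000020270, chromosome 9, 43027731 to 43040012), cyclin E2, a partner of CDK2, was at 8.17, 10.2 and 9.86 CPM in the untreated libraries, 9.62, 10.1 and 3.28 with IL-1ß alone, 8.74, 13.3 and 13.9 with MSC-CM, 6.56, 10.8 and 12.8 with PRP lysate and 11.9, 8.09 and 12.5 with ACS. BRCA1 (ENSECAG00000016974, chromosome 11, 20122310 to 20175923), which protects stalled forks and repairs breaks, was at 10.2, 15.6 and 14.5 CPM in the untreated libraries, 23.1, 17.3 and 3.91 with IL-1ß alone, 13.9, 24.7 and 22.2 with MSC-CM, 18.3, 18.4 and 24.1 with PRP lysate and 18.1, 21.8 and 19.7 with ACS. IL-1ß 3 was the lowest of all 15 libraries for both, and the IL-1ß libraries overlapped every other group.

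At entry into mitosis, CDK1 (ENSECAG00000009716, chromosome 1, 50582839 to 50622779), the mitotic cyclin-dependent kinase, was at 40.8, 33.6 and 38.3 CPM in the untreated libraries, 49.9, 52.1 and 57.6 with IL-1ß alone, 68.8, 64.6 and 64.3 with MSC-CM, 83.3, 47.2 and 56.99 with PRP lysate and 45.5, 49.3 and 49.5 with ACS. CCNB1 (ENSECAG00000015806, chromosome 21, 5448028 to 5455134), its partner cyclin B1, was at 64.9, 55.1 and 66.1 CPM in the untreated libraries, 70.8, 82.9 and 83.6 with IL-1ß alone, 91.7, 81.9 and 80.4 with MSC-CM, 114, 73.7 and 96.6 with PRP lysate and 67.7, 66.6 and 83.1 with ACS. All 12 treated libraries exceeded the untreated range for both genes, and CDK1 was higher in each MSC-CM library and lower in each ACS library than in any IL-1ß library. PLK1 (ENSECAG00000017777, chromosome 13, 24862844 to 24874035), the Polo-like kinase of mitotic entry and spindle assembly, was at 41.1, 37.9 and 46.9 CPM in the untreated libraries, 62.3, 62.4 and 67.8 with IL-1ß alone, 65.3, 67.5 and 65.9 with MSC-CM, 81.9, 47.6 and 60.4 with PRP lysate and 48.2, 46.3 and 52.8 with ACS. Here the IL-1ß, MSC-CM and PRP lysate libraries lay above the untreated range, and ACS libraries overlapped it and lay below the IL-1ß range.

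AURKB (ENSECAG00000014384, chromosome 11, 51426259 to 51430181), the kinase of the chromosomal passenger complex, was at 38.3, 31.7 and 45.7 CPM in the untreated libraries, 54.0, 60.8 and 81.8 with IL-1ß alone, 71.8, 75.4 and 72.7 with MSC-CM, 80.7, 49.9 and 51.1 with PRP lysate and 47.1, 50.6 and 56.4 with ACS. BIRC5 (ENSECAG00000008466, chromosome 11, 4306506 to 4312699), survivin, a subunit of the same complex, was at 20.2, 21.5 and 23.9 CPM in the untreated libraries, 25.96, 27.5 and 22.6 with IL-1ß alone, 34.2, 33.5 and 32.2 with MSC-CM, 45.5, 25.5 and 32.6 with PRP lysate and 22.4, 23.7 and 26.3 with ACS. The MSC-CM values of both lay above all untreated libraries, and for BIRC5 also above all IL-1ß libraries. AURKA (ENSECAG00000023961, chromosome 22, 44085545 to 44135786), the kinase of centrosome maturation, was at 89.0, 77.4 and 117 CPM in the untreated libraries, 81.9, 88.6 and 84.7 with IL-1ß alone, 86.9, 107.4 and 108 with MSC-CM, 157, 98.4 and 95.8 with PRP lysate and 76.8, 83.8 and 112 with ACS. PLK4 (ENSECAG00000008187, chromosome 2, 101407346 to 101422300), which starts centriole duplication, was at 22.6, 24.4 and 25.1 CPM in the untreated libraries, 30.1, 29.3 and 13.1 with IL-1ß alone, 31.8, 41.3 and 41.8 with MSC-CM, 22.9, 32.7 and 37.3 with PRP lysate and 27.8, 31.9 and 38.2 with ACS. AURKA libraries of the untreated and IL-1ß groups overlapped, with all PRP lysate libraries above the IL-1ß range, and PLK4 was lowest in IL-1ß 3 and above the IL-1ß range in all MSC-CM libraries.

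In the kinetochore, NDC80 (ENSECAG00000008827, chromosome 8, 45962059 to 46004112), which binds spindle microtubules, was at 19.1, 19.4 and 24.1 CPM in the untreated libraries, 35.2, 31.6 and 28.3 with IL-1ß alone, 32.1, 37.9 and 39.7 with MSC-CM, 32.9, 25.96 and 33.7 with PRP lysate and 23.7, 27.4 and 27.8 with ACS. NUF2 (ENSECAG00000009163, chromosome 5, 30995572 to 31022382), its direct partner in the same complex, was at 20.02, 17.3 and 24.9 CPM in the untreated libraries, 25.9, 26.1 and 31.8 with IL-1ß alone, 29.2, 32.7 and 33.8 with MSC-CM, 31.1, 23.7 and 27.7 with PRP lysate and 20.7, 21.1 and 25.0 with ACS. For both, IL-1ß and MSC-CM libraries lay above the untreated range, and ACS libraries overlapped it and lay below the IL-1ß range. KIF11 (ENSECAG00000006607, chromosome 1, 36519797 to 36566254), the motor that pushes spindle poles apart, was at 52.5, 77.3 and 63.2 CPM in the untreated libraries, 122, 91.3 and 24.0 with IL-1ß alone, 85.0, 152 and 139.8 with MSC-CM, 53.6, 94.9 and 124 with PRP lysate and 86.9, 96.2 and 117 with ACS. TOP2A (ENSECAG00000013053, chromosome 11, 22242493 to 22266604), the topoisomerase that untangles chromosomes, was at 119, 179 and 130.4 CPM in the untreated libraries, 266, 198 and 86.7 with IL-1ß alone, 205, 304 and 275 with MSC-CM, 178, 217 and 299 with PRP lysate and 213, 220.4 and 269 with ACS. Both were lowest of all in IL-1ß 3, and MSC-CM and ACS libraries lay above the untreated range.

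**Figure D2:**
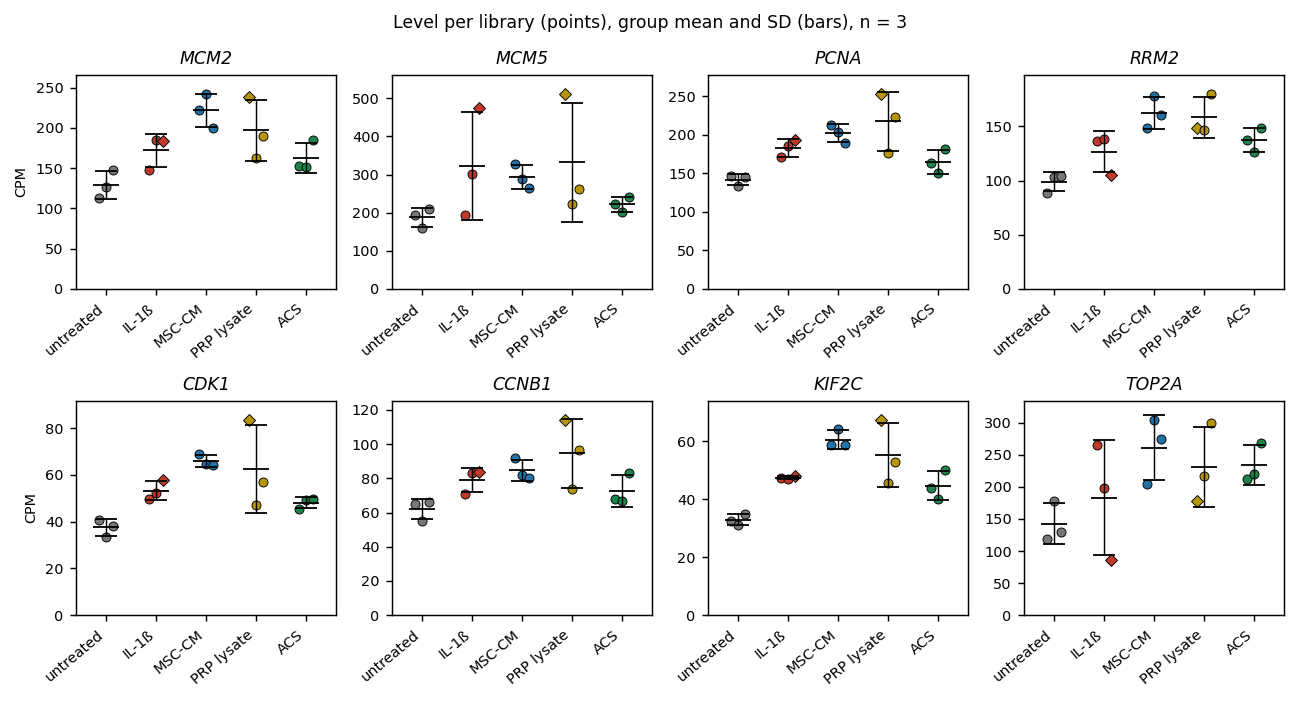
Level in CPM (linear axes from 0) of 4 replication genes and 4 mitotic genes in each library (points) with the group mean and SD (bars, n = 3). Diamonds mark IL-1ß 3 and PRP lysate 1. The treated groups sit above the untreated group for MCM2, PCNA, RRM2, CDK1, CCNB1 and KIF2C, while MCM5 and TOP2A split within the IL-1ß group, from 194 to 475 CPM and from 86.7 to 266 CPM.

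Activation with IL-1ß alone was compared with untreated macrophages to ask whether the cytokine moved these genes. The test was that of limma on log2(CPM + 1) values with an intensity trend, and the threshold was a Benjamini-Hochberg adjusted p over all tested genes of at most 0.05 and a 2-fold change, which 0 of the 53 genes and 0.292% of all genes passed. With the adjusted p alone 0 genes rose, against 0.155% of all genes, and at an unadjusted p of at most 0.05 there were 22 higher and 0 lower, against 6.45% and 6.5% of all genes. DESeq2 on recovered reads called 4 (FOXM1, NDC80, RRM2 and TPX2), against 1.02% of all genes higher, and edgeR called 0. In simulated data for this comparison DESeq2 made 24 false calls beside 160 true ones, and limma 8 beside 166. The simulated reads had 1 common spread for all genes and no library that stood apart, so these rates may not hold in the data. The 22 became 13 without untreated 1 or untreated 2, and 37 without both libraries that stood apart. The background also rose in that last fit, where 1400 of the 11628 genes were higher at that unadjusted p, against 750 with all libraries. The mean of log2(CPM + 1) was higher with IL-1ß for 47 of 53 genes (22 of 26 replication and 25 of 27 mitotic), with a median log2 fold change of 0.37 beside -0.07 over all genes tested. BRCA1, CDK2 and PLK4 were lower on this scale but not in mean CPM. In the limma comparisons below, higher and lower means are also on this scale. The 3 IL-1ß libraries lay entirely above the 3 untreated ones for 22 genes, against 7.98% of all genes, and entirely below for 0.

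The replication genes with the smallest adjusted p were MCM7 at 0.51 ± 0.16 (SE), adjusted p = 0.202, and MCM3 at 0.47 ± 0.15 (SE), adjusted p = 0.225. In the mitotic set they were NDC80 at 0.58 ± 0.16 (SE), adjusted p = 0.155, and AURKB at 0.74 ± 0.21 (SE), adjusted p = 0.163. The licensing and helicase genes were higher for 11 of 11 with a median of 0.50, and the G2/M cyclins, kinases and transcription factors for 6 of 6 with a median of 0.60. The G1/S cyclins, kinases and transcription factors divided into 3 higher and 3 lower, among them CCNE2 at -0.38 ± 0.35 and CDC25A at -0.32 ± 0.34. These differences in fold did not pass the test for any single gene. Without both libraries that stood apart, 52 of 53 genes were higher and 10 passed the adjusted p with limma, against 1.54% of all genes higher in that fit, namely CDC6 and E2F2 of the replication set and BUB1, FOXM1, KIF2C, MAD2L1, NDC80, PLK1, TPX2 and TTK of the mitotic set. In that fit FOXM1 was at 0.86 ± 0.20 (SE), adjusted p = 0.0443, and CDC6 at 0.85 ± 0.18 (SE), adjusted p = 0.0307. FOXM1, the transcription factor of the G2/M genes, had been at 0.78 ± 0.22 (SE), adjusted p = 0.167 with all libraries.

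IL-1ß combined with MSC-CM was next compared with untreated macrophages. The mean of all 53 genes was higher than without treatment, with a median log2 fold change of 0.66 for replication genes and 0.75 for mitotic genes beside 0.10 over all genes tested. The adjusted p of limma was passed by 12 genes (6 replication and 6 mitotic), all higher, against 1.39% of all genes. Past 2-fold as well there were 0, against 0.662% of all genes. Libraries did not overlap for 46 genes, all higher in MSC-CM, against 21.9% of all genes. At an unadjusted p of at most 0.05 there were 43 higher and 0 lower, against 11.7% and 3.98% of all genes. Leaving out any 1 of the 6 libraries ended all 12 calls, as did a replicate block, while edgeR on recovered reads called 5 (BUB1, KIF2C, KIF20A, NDC80 and RRM2), against 0.49% of all genes, and DESeq2 14, against 2.23%. A fit of these 6 libraries alone called 40, of which 3 were past 2-fold, against 5.92% of all genes higher. All 10 T cell markers were higher in the same comparison, at a median of 0.83, and their part in these differences was not tested.

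The replication genes that rose were 4 helicase subunits, RRM2 and UHRF1. On the log2(CPM + 1) scale, MCM2 rose by 0.78 ± 0.16 (SE), adjusted p = 0.0346, from 129 ± 17.2 CPM to 222 ± 20.9 CPM (SD, n = 3). RRM2 rose by 0.71 ± 0.14 (SE), adjusted p = 0.0321, from 98.8 ± 8.66 CPM to 162 ± 14.5 CPM. UHRF1 rose by 0.82 ± 0.16 (SE), adjusted p = 0.0328, from 145 ± 23.3 CPM to 254 ± 23.7 CPM. The other subunits were MCM3, MCM6 and MCM7, with log2 fold changes of 0.68, 0.66 and 0.70. MCM4 at 0.47 ± 0.15 and MCM5 at 0.65 ± 0.31, the remaining subunits of the ring, did not pass (adjusted p = 0.123 and 0.345, limma). PCNA was at 0.51 ± 0.13 (SE), adjusted p = 0.0755. Larger fold changes that missed the threshold in limma belonged to CDC6, the licensing factor, at 1.03 ± 0.26 (SE), adjusted p = 0.065, and E2F2, an activating E2F, at 1.105 ± 0.28 (SE), adjusted p = 0.0632, both of which DESeq2 called (adjusted p = 0.00204 and 0.00347).

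The mitotic genes that rose were CDK1, AURKB, NDC80, KIF20A, KIF2C and TPX2. KIF2C, a kinesin that shortens microtubules at the kinetochore (ENSECAG00000019038, chromosome 2, 13691245 to 13707132), had the smallest adjusted p of the 53, at 32.6, 31.1 and 34.9 CPM in untreated libraries and 58.7, 64.2 and 58.6 CPM in MSC-CM libraries, a rise of 0.86 ± 0.15 (SE), adjusted p = 0.0182. TPX2, the spindle assembly factor that activates Aurora A, rose by 0.73 ± 0.14 (SE), adjusted p = 0.0286. KIF20A, a motor of the central spindle, rose by 0.86 ± 0.18 (SE), adjusted p = 0.0346. In each of these 3 genes the MSC-CM libraries lay above the untreated and above the IL-1ß libraries. CDK1 rose by 0.80 ± 0.17 (SE), adjusted p = 0.0395, from 37.5 ± 3.67 CPM to 65.9 ± 2.54 CPM. AURKB rose by 0.92 ± 0.21 (SE), adjusted p = 0.0406. NDC80 rose by 0.78 ± 0.16 (SE), adjusted p = 0.0346. By role, the spindle motors and TPX2 had a median of 0.86, with 3 of 5 past the test, and the kinases and checkpoint genes had 0.65, with 1 of 10. AURKA was the smallest at 0.11 ± 0.21, and TOP2A was at 0.87 ± 0.34 (SE), adjusted p = 0.217.

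With PRP lysate the mean of all 53 genes was also above untreated macrophages, at a median of 0.58 beside 0.04 over all genes tested. This median was below the 0.68 of MSC-CM with all libraries, but was 0.71 without PRP lysate 2, and both were close with RLE scaling, at 0.54 and 0.55. The adjusted p was passed by 6 genes (MCM3, MCM6, PCNA, RRM2, UHRF1 and KIF2C), all higher, against 0.705% of all genes, and 0 were past 2-fold, against 1.6% of all genes. UHRF1 rose by 0.82 ± 0.16 (SE), adjusted p = 0.0166, from 145 ± 23.3 CPM to 257 ± 44.8 CPM (SD, n = 3). RRM2 rose by 0.67 ± 0.14 (SE), adjusted p = 0.0219. PCNA rose by 0.60 ± 0.13 (SE), adjusted p = 0.0319, to 217 ± 38.7 CPM. Of the 6, KIF2C was the only mitotic gene, with a rise of 0.72 ± 0.15 (SE), adjusted p = 0.0193, beside 5 replication genes. The medians were close, at 0.57 for replication and 0.59 for mitotic genes. In limma 14 of 26 replication and 21 of 27 mitotic genes were higher at an unadjusted p of at most 0.05. The libraries did not overlap for 34 genes, all higher with PRP lysate, against 10.1% of all genes, and 35 were higher and 0 lower at an unadjusted p of at most 0.05, against 6.68% and 6.12% of all genes, and the 35 became 22 without PRP lysate 1. Without both libraries that stood apart 9 genes passed (MCM6, PCNA, RRM2 and UHRF1 of the replication set, and CDK1, KIF2C, MAD2L1, TOP2A and TTK of the mitotic set), against 2.61% of all genes, and the median was 0.44. The 6 calls became 13 without PRP lysate 2, 1 without PRP lysate 1, 3 without untreated 3 and 0 without PRP lysate 3, untreated 1 or untreated 2, and 2 with RLE scaling. A fit of the 2 groups alone and a replicate block each left 0, whereas edgeR called 2 (RRM2 and UHRF1), against 0.344% of all genes, and DESeq2 9, against 1.36%. All 11 macrophage markers tested were lower in the same comparison, at a median of -0.91, and their part was not tested.

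With ACS, 52 of the 53 genes were above untreated macrophages in the mean, at a median of 0.35 beside 0.08 over all genes tested. There 0 passed the adjusted p of limma or that p with 2-fold, against 0.163% (higher) and 0.37% of all genes. There were 10 higher and 0 lower at an unadjusted p of at most 0.05, against 3.72% and 3.92% of all genes, DESeq2 called 1 (RRM2), against 0.44% of all genes higher, and edgeR called 0. The 10 became 1 without ACS 3, 3 without untreated 1, and 32 in a fit of these 6 libraries alone, where 15.2% of all genes were higher at that p. That fit called 2 by adjusted p, against 1.32% of all genes higher. For 32 genes libraries were apart, all higher with ACS, against 16.3% of all genes. RRM2 had the smallest adjusted p, at 0.47 ± 0.14 (SE), adjusted p = 0.259, and TOP2A the highest log2 fold change, at 0.72 ± 0.34 (SE), adjusted p = 0.654. The 4 comparisons with untreated macrophages used the same 3 untreated libraries, so they were not independent of each other.

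**Figure D3:**
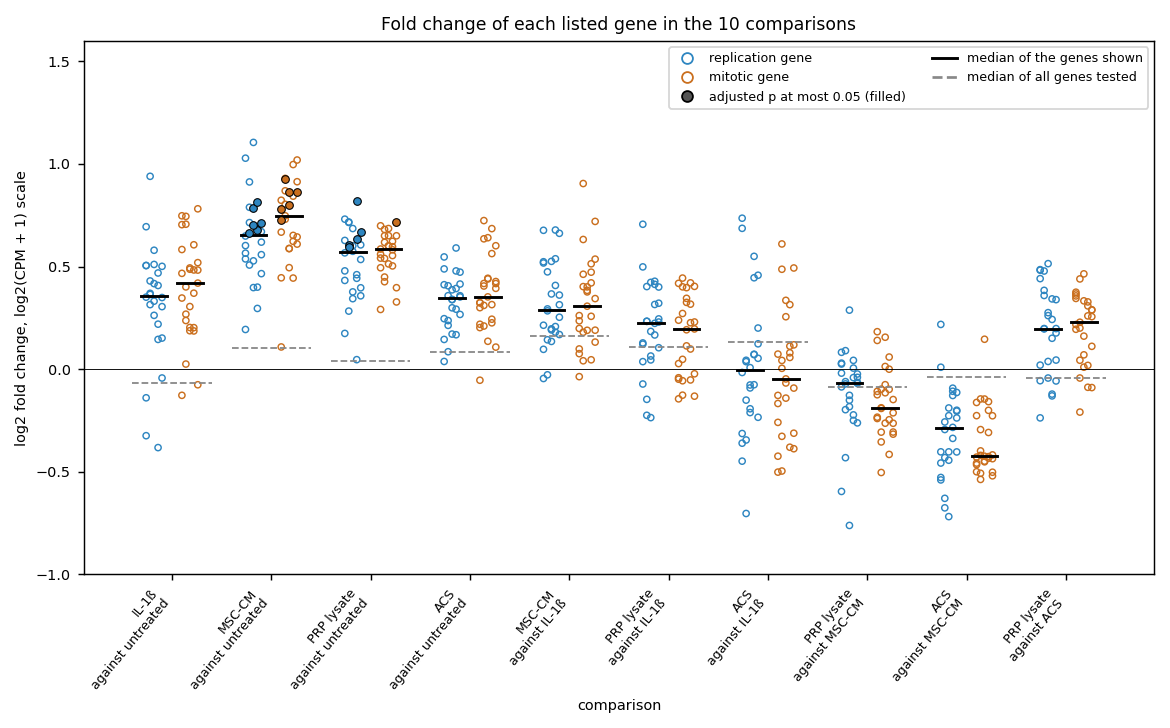
Log2 fold change of every listed gene (circles, replication and mitotic genes apart) in the 10 comparisons, on the log2(CPM + 1) scale. Filled circles passed an adjusted p of at most 0.05 in limma, short black bars are medians of the genes shown, and dashed grey bars medians of all genes tested. Filled circles appear for MSC-CM against untreated (12) and PRP lysate against untreated (6), and the columns against IL-1ß lie near the dashed bars.

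The question of the OTs was asked against IL-1ß activated macrophages. With MSC-CM, 50 of 53 genes had a higher mean than with IL-1ß alone, at a median of 0.29 for replication and 0.31 for mitotic genes, while all genes tested were also shifted by 0.16. With RLE scaling of the libraries the median of all genes was 0.00, that of the 53 genes 0.12, and 41 were higher. By limma 0 genes passed the adjusted p or that p with 2-fold, against 0.0% and 0.0% of all genes, 7 were higher and 0 lower at an unadjusted p of at most 0.05 (4.9% and 0.697% of all genes), and DESeq2 and edgeR called 0 each. The 7 became 18 without IL-1ß 1, 12 without IL-1ß 2, 3 without IL-1ß 3, 1 without MSC-CM 2, 2 with RLE scaling and 15 without both libraries that stood apart. In that last fit 5.31% of all genes were higher at that p, and the median was 0.24 beside 0.05 over all genes. Libraries were apart for 14 genes, all higher with MSC-CM, against 7.25% of all genes. All 53 had an adjusted p of 0.705 or above, and among those tied at it the largest fold changes in the replication set were CCNE2 at 0.68 ± 0.35 and BRCA1 at 0.68 ± 0.45, and in the mitotic set KIF11 at 0.90 ± 0.48 and PLK4 at 0.72 ± 0.28 (SE). Without both libraries that stood apart these became 0.23 ± 0.22, -0.02 ± 0.24, 0.21 ± 0.24 and 0.35 ± 0.16 in the same order. RRM2 was at 0.36 ± 0.14 and CDK1 at 0.31 ± 0.17.

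With PRP lysate, 41 of 53 genes had a higher mean than with IL-1ß alone, at a median of 0.22 beside 0.11 over all genes tested. By limma 0 passed the adjusted p (higher, 1.93% of all genes) or that p with 2-fold (3.09% of all genes), 3 were higher and 0 lower at an unadjusted p of at most 0.05 (9.85% and 7.68% of all genes), and DESeq2 and edgeR called 0 each. Libraries were apart for 3 genes (UHRF1, RRM2 and AURKA), all higher, against 8.5% of all genes. UHRF1 was at 0.41 ± 0.16 (SE), adjusted p = 0.196, and RRM2 at 0.32 ± 0.14 (SE), adjusted p = 0.251. Among mitotic genes BIRC5 was at 0.40 ± 0.18 (SE), adjusted p = 0.281, and AURKA at 0.42 ± 0.21 (SE), adjusted p = 0.332. Without both libraries that stood apart the median of the 53 genes was 0.04 beside 0.02 over all genes, and 32 were higher. Leaving out PRP lysate 1 alone gave 0.10 beside 0.14, leaving out IL-1ß 3 alone gave 0.10 beside -0.02, and leaving out PRP lysate 2 gave 0.32 beside 0.10 over all genes. The 3 genes higher at an unadjusted p of at most 0.05 became 10 without PRP lysate 2, 9 without IL-1ß 1, and 1 without PRP lysate 1 or PRP lysate 3.

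With ACS against IL-1ß alone 26 genes were higher and 27 lower, at a median of -0.02 beside 0.13 over all genes tested. With RLE scaling, which moved the median of all genes to 0.02, 12 were higher and 41 lower. The split also moved with single libraries, to 16 higher at a median of -0.09 without IL-1ß 3, the same as without both libraries that stood apart, and to 18 higher at -0.13 without ACS 3. By limma 0 passed the adjusted p (higher, 1.77% of all genes) or that p with 2-fold (2.21% of all genes), 1 was higher and 1 lower at an unadjusted p of at most 0.05 (12.1% and 8.38% of all genes), and DESeq2 and edgeR called 0 each. Those counts became 7 and 5 without IL-1ß 1, 3 and 0 without IL-1ß 2, 0 and 1 without IL-1ß 3 or ACS 3, 0 and 0 without ACS 1 or ACS 2, and 0 and 7 with DESeq2 (13.2% of all genes lower). With all libraries in limma, the gene that was higher was CDC25A at 0.74 ± 0.34 (SE), adjusted p = 0.243, the single gene whose ACS libraries all lay above the IL-1ß libraries, against 14.9% of all genes. The gene that was lower was PLK1 at -0.38 ± 0.17 (SE), adjusted p = 0.229. CDK2 was at 0.46 ± 0.23 (SE), adjusted p = 0.267, and NUF2 at -0.31 ± 0.17 (SE), adjusted p = 0.278. For 6 genes (CDK1, FOXM1, PLK1, CDC20, NUF2 and NDC80) the ACS libraries all lay below the IL-1ß libraries, a count near the background of 11.2% of all genes. The 3 comparisons of this kind share the 3 IL-1ß libraries.

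Between the OTs, which were given at the same share of the medium and for the same time, the 53 genes summed to the lowest mean with ACS, at 4373 ± 478 CPM against 5426 ± 332 CPM with MSC-CM and 5204 ± 952 CPM with PRP lysate (SD, n = 3). Against MSC-CM, 50 of 53 genes were lower with ACS, at a median of -0.29 for replication and -0.42 for mitotic genes beside -0.04 over all genes tested. By limma with all libraries 0 passed the adjusted p (lower, 1.1% of all genes) or that p with 2-fold (1.23% of all genes), 15 were lower and 0 higher at an unadjusted p of at most 0.05 (8.8% and 4.74% of all genes), and DESeq2 and edgeR called 0 each. In a fit of these 6 libraries alone 18 genes passed (8 replication and 10 mitotic), all lower with ACS, against 8.38% of all genes in that fit. The 15 became 3 without ACS 1, 6 without ACS 2, 5 without MSC-CM 2 and 9 without MSC-CM 3. Libraries were apart for 28 genes, all lower with ACS, against 22.2% of all genes. The smallest adjusted p was that of TPX2 at -0.43 ± 0.14 (SE), adjusted p = 0.157, with 149.6, 164 and 154 CPM in MSC-CM libraries and 109, 111 and 127 CPM in ACS libraries. MCM2 was at -0.44 ± 0.16 (SE), adjusted p = 0.22, and CDK1 at -0.45 ± 0.17 (SE), adjusted p = 0.263.

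Between PRP lysate and MSC-CM the median was smaller. By limma 13 genes were higher and 40 lower with PRP lysate, at a median of -0.11 beside -0.09 over all genes tested. The median depended on the method and on single libraries, with 8 higher at a median of -0.28 without PRP lysate 1, 22 higher under RLE scaling at a median of -0.03, 25 higher with edgeR at -0.01, 29 higher with DESeq2 at 0.02, and 29 higher without PRP lysate 2 at 0.01. There were 0 genes past the adjusted p (lower, 2.78% of all genes) or that p with 2-fold (2.61% of all genes), 2 lower and 0 higher at an unadjusted p of at most 0.05 (9.43% and 5.1% of all genes), and 0 by DESeq2 and by edgeR. The 2 became 10 without PRP lysate 1, 20 without both libraries that stood apart (18.6% of all genes in that fit), 1 without MSC-CM 3, and 0 without MSC-CM 2 or PRP lysate 2. With all libraries the groups were apart for the same 2 genes, CDC6 and E2F2, both lower with PRP lysate, against 12.1% of all genes. E2F2 was at -0.76 ± 0.28 (SE), adjusted p = 0.183, and CDC6 at -0.60 ± 0.26 (SE), adjusted p = 0.299. Without the libraries that stood apart 8 genes fell (CCNE1, CDT1, E2F2, TK1, AURKB, CDC20, MYBL2 and TPX2), against 9.86% of all genes in that fit, of which TK1, the thymidine salvage kinase, was at -0.86 ± 0.13 (SE), adjusted p = 0.000994. With all libraries TK1 was at -0.43 ± 0.30 (SE), adjusted p = 0.639, from 136, 57.1 and 53.7 CPM with PRP lysate and 106.8, 99.2 and 97.8 CPM with MSC-CM.

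Against ACS, 43 of 53 genes were higher with PRP lysate, at a median of 0.22 beside -0.04 over all genes tested. By limma 0 passed the adjusted p (higher, 0.0% of all genes) or that p with 2-fold (0.0946% of all genes), 4 were higher and 0 lower at an unadjusted p of at most 0.05 (PCNA, FEN1, CCNB1 and BIRC5; 1.8% and 3.39% of all genes), and DESeq2 and edgeR called 0 each. Libraries were apart for 1 gene, MAD2L1, a spindle checkpoint protein, at 0.31 ± 0.22, against 6.66% of all genes. PCNA was at 0.38 ± 0.13 (SE), adjusted p = 0.681. Without PRP lysate 1, as without both libraries that stood apart, the median was 0.11 with 48 genes higher, and without PRP lysate 2 it was 0.35. The 4 genes at an unadjusted p of at most 0.05 became 0 without PRP lysate 1 or ACS 2, 1 without ACS 1, 8 without ACS 3 and 18 without PRP lysate 2.

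The genes did not move as a block in the pair of libraries that stood apart. In IL-1ß 3, 13 of the 53 genes lay at least 1 log2 unit from the mean of the other 2 IL-1ß libraries, from -2.10 for BRCA1 and -2.09 for KIF11 to 1.14 for GINS2, an origin firing factor, and 1.09 for CDT1. In PRP lysate 1 there were 7, from -1.26 for MCM10 to 1.41 for CDT1 and 1.28 for TK1. Low genes tended to span more of the genome, with a Spearman rho between deviation and annotated gene span of -0.40 over the 53 genes in IL-1ß 3 and -0.41 in PRP lysate 1, and of -0.45 and -0.41 over the 11628 tested genes. These correlations are descriptions across genes that share a library. Negative values over the 53 genes also occurred in MSC-CM 1 (-0.52), untreated 3 (-0.34), untreated 1 (-0.34) and ACS 1 (-0.26), where 0 genes lay 1 log2 unit from the other 2 libraries. With the trend against gene span removed, 0, 10 and 9 genes passed the adjusted p for IL-1ß, MSC-CM and PRP lysate against untreated, in place of 0, 12 and 6, against 0.172%, 1.21% and 0.783% of all genes higher.

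**Figure D4:**
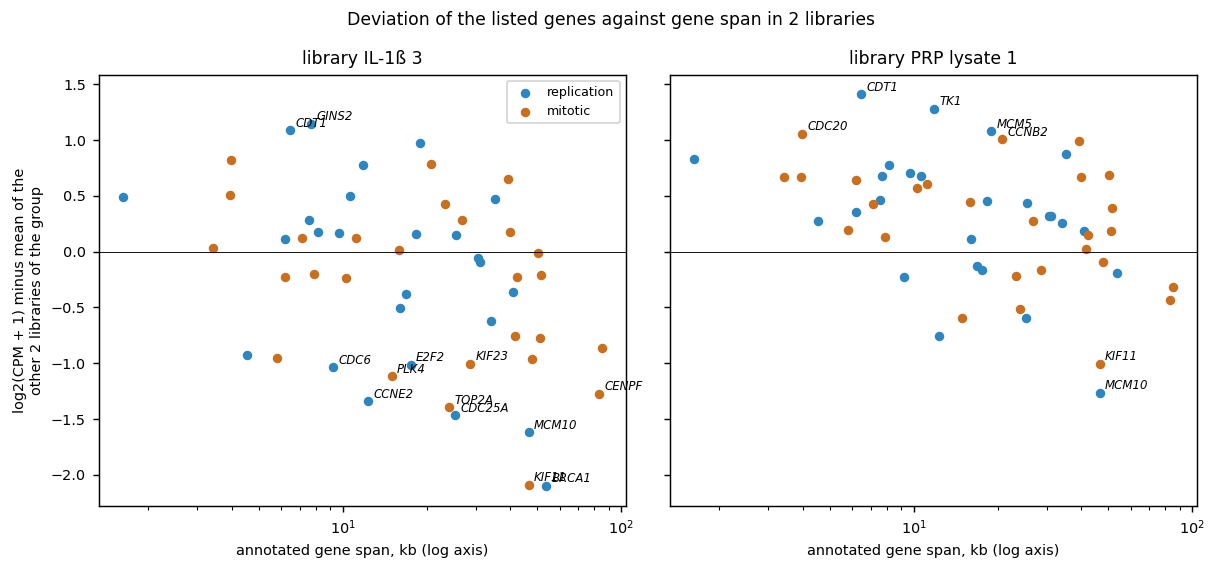
Deviation of each listed gene in IL-1ß 3 (left) and PRP lysate 1 (right) from the mean of the other 2 libraries of its group, on the log2(CPM + 1) scale, against the annotated gene span in kb (log axis). Genes at least 1 log2 unit away are named. KIF11 and MCM10, at 46.5 kb each, are low in both panels and CDT1, at 6.45 kb, is high in both, while CDC6 and CCNE2, at 9.21 and 12.3 kb, are among the low genes of IL-1ß 3.

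Markers of T cells were higher together with the cell cycle genes in some comparisons and not in others. The 10 T cell markers summed to 863 to 1298 CPM in untreated libraries, 1213 to 2452 CPM with IL-1ß alone, 1711 to 1862 CPM with MSC-CM, 1084 to 2499 CPM with PRP lysate and 1029 to 1333 CPM with ACS. None of the 10 was at 0 in any library. Against untreated macrophages all 10 were higher with MSC-CM, at a median log2 fold change of 0.83 and with libraries apart for all 10, against 21.9% of all genes. By the adjusted p of limma 1 of the 10 rose, against 1.39% of all genes. This was CD3D, a subunit of the T cell receptor complex, at 0.89 ± 0.20 (SE), adjusted p = 0.0397. The same markers were higher for 9 of 10 at a median of 0.65 with IL-1ß alone, 9 of 10 at 0.60 with PRP lysate and 9 of 10 at 0.19 with ACS, and 0 of 10 were higher with ACS than with MSC-CM, at a median of -0.67. Against IL-1ß alone 10 of 10 were higher with MSC-CM, at 0.18. There were 2 of 10 higher with PRP lysate, at -0.07, where 41 of the 53 cell cycle genes were higher, and 1 of 10 with ACS, at -0.51, where 26 were. In 4 of the 5 groups the library with the highest sum of T cell markers also had the highest sum of the 53 genes, the exception being the IL-1ß group. The part of T cells in the differences of the cell cycle genes was not tested.

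Compared with no treatment, the macrophage markers were lower with PRP lysate and, to a smaller extent in the median, with ACS. The 11 listed ones summed to 4203 to 6331 CPM in untreated libraries, 3450 to 6416 CPM with IL-1ß alone, 4335 to 5304 CPM with MSC-CM, 2042 to 4237 CPM with PRP lysate and 3656 to 4907 CPM with ACS. PRP lysate 1, the library with the highest sum of the 53 genes, had the lowest of these. Against untreated macrophages all 11 were lower with PRP lysate, at a median log2 fold change of -0.91, and 4 fell (1.88% of all genes), namely CD163, a scavenger receptor, at -4.28 ± 0.39 (SE), adjusted p = 7.48e-05, C1QC at -1.87 ± 0.25 (SE), adjusted p = 0.00122, CSF1R, the receptor of M-CSF, at -1.46 ± 0.33 (SE), adjusted p = 0.0364, and AIF1 at -0.86 ± 0.21 (SE), adjusted p = 0.0476. Against IL-1ß alone 10 of 11 were lower with PRP lysate, at a median of -1.08, and CD163, AIF1, C1QC and LYZ fell (3.0% of all genes). With ACS 10 of 11 were lower than without treatment, at a median of -0.58, with 8 apart (10.0% of all genes lower). By limma 0 of them passed the adjusted p (0.31% of all genes lower), and 4 were lower at an unadjusted p of at most 0.05 (3.92%). Against IL-1ß alone 8 of 11 were lower with ACS, at -0.21, and CD163 and AIF1 fell (1.68% of all genes). With MSC-CM 7 of 11 were lower than with IL-1ß alone, at -0.22, and 6 of 11 lower than without treatment, at -0.09. In both of these, 0 passed the adjusted p of limma. The NK cell markers were highest in PRP lysate 1, at 824 CPM against 210 to 537 CPM in the other libraries. With PRP lysate against untreated macrophages 4 of 6 NK cell markers were higher and 2 lower. By the adjusted p of limma 1 of the 6 rose, as did 1 of 2 platelet markers tested (0.705% of all genes), and 1 of 4 endothelial markers tested fell (1.88%). Their part was not tested either.

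**Figure D5:**
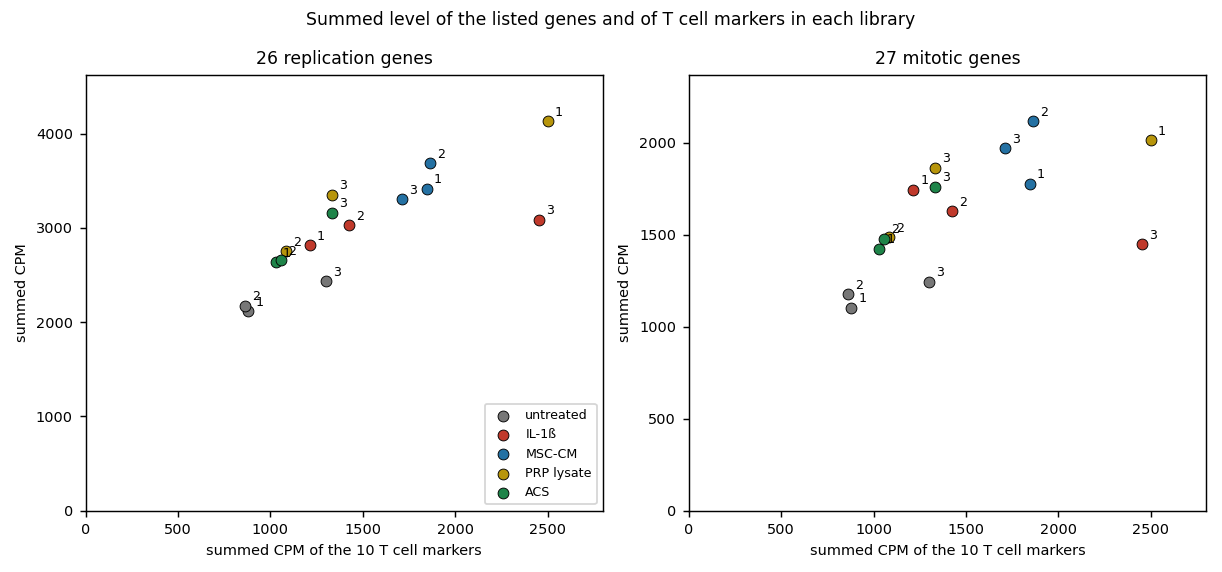
Summed CPM of the 26 replication genes (left) and 27 mitotic genes (right) against the summed CPM of 10 T cell markers, 1 point per library, numbered within its group and with both axes from 0. The untreated libraries lie lowest on both panels, MSC-CM libraries lie above them and to the right, PRP lysate 1 lies furthest right at 2499 CPM of T cell markers with 4133 CPM of replication genes, and IL-1ß 3 lies at 2452 CPM with 3087 CPM of replication genes and 1449.5 CPM of mitotic genes.

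Further cell cycle genes were counted from lists, also drawn up with results of these data known. Of 64 other mitosis genes tested, 63 were higher with MSC-CM than without treatment, at a median of 0.70, and 10 rose by the adjusted p of limma (1.39% of all genes rose, and 0.705% with PRP lysate). The smallest adjusted p there were those of NCAPD2, a condensin subunit, with a rise of 0.91 ± 0.15 (SE), adjusted p = 0.0168, and DLGAP5, a spindle protein, with a rise of 0.86 ± 0.16 (SE), adjusted p = 0.0239. With PRP lysate 62 of the 64 were higher, at a median of 0.54, and 4 rose, led by TRIP13, which resets the spindle checkpoint, at 0.74 ± 0.14 (SE), adjusted p = 0.0109. Of 25 other fork and nucleotide genes 24 were higher with MSC-CM and 24 with PRP lysate, at medians of 0.49 and 0.57. Of these, 0 passed the adjusted p of limma, DESeq2 or edgeR in these 2 comparisons, with 15 and 13 higher at an unadjusted p of at most 0.05 in limma (11.7% and 6.68% of all genes). RFC4, a subunit of the clamp loader, was at 0.66 ± 0.16 (SE), adjusted p = 0.0551, in MSC-CM against untreated. Of 22 other origin and helicase genes 19 and 20 were higher, at medians of 0.31 and 0.35, with 0 past the adjusted p of limma (7 and 9 higher at an unadjusted p of at most 0.05), while DESeq2 called 3 and 1 higher and 1 and 0 lower (2.23% and 1.36% of all genes higher) and edgeR 0.

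Genes that gate entry from G1 and the inhibitors of the cycle were also counted. Of 12 inhibitors tested, 5, 6, 9 and 5 were higher with IL-1ß alone, MSC-CM, PRP lysate and ACS than without treatment, at medians of -0.16, -0.06, 0.19 and -0.04. Of 20 G1 entry genes (D cyclins, CDK4 and CDK6, E2F and pocket proteins, MYC) 8 were higher with IL-1ß alone than without treatment and 16, 13 and 17 with MSC-CM, PRP lysate and ACS, at medians of -0.05, 0.27, 0.22 and 0.30. There were 0 past the adjusted p of limma in these comparisons (0, 2, 4 and 1 higher at an unadjusted p of at most 0.05), with 1 called by DESeq2, in PRP lysate, and 0 by edgeR. The shares of all genes higher at that unadjusted p were 6.45%, 11.7%, 6.68% and 3.72%. Against IL-1ß alone, MYC, a growth-promoting transcription factor, rose with PRP lysate by 0.69 ± 0.18 (SE), adjusted p = 0.0431, with 36.4, 38.0 and 30.9 CPM in IL-1ß libraries and 48.0, 52.7 and 72.7 CPM in PRP lysate libraries. CDKN1A, the inhibitor p21, rose in the same comparison by 0.73 ± 0.19 (SE), adjusted p = 0.0449, with 639, 705 and 423 CPM against 954, 1008 and 909 CPM. Without both libraries that stood apart CDKN1A no longer passed, at 0.51 ± 0.17 (SE), adjusted p = 0.0916, and MYC was at 0.72 ± 0.18 (SE), adjusted p = 0.0259. BTG2, an antiproliferative gene, rose with ACS by 0.98 ± 0.23 (SE), adjusted p = 0.0342. TIPIN, which protects replication forks, rose with PRP lysate by 0.55 ± 0.14 (SE), adjusted p = 0.0446. All 4 had groups that did not overlap, and these rises were counted against 1.93% of all genes for PRP lysate and 1.77% for ACS.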

How the data were processed

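Macrophage RNA was sequenced after poly(A) selection in 15 libraries of 5 groups. The deposited values are CPM per gene, which the authors made with cutadapt, STAR 2.7.3 on EquCab3.0, HTSeq and Partek; the strand setting is not given in the sources used here, so antisense overlap cannot be told apart. All columns matched a library, with 0 left over. CPM values were whole multiples of 1 read, within 0.1 read, for 99.698% of values, so whole reads were recovered for count tests. Depth was 28410734 to 47894071 reads.

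Testing was restricted to genes whose mean reached 1 CPM and used limma 3.58.1 on log2(CPM + 1) (intensity trend, 1 fit over all groups, R 4.3.3) and Benjamini-Hochberg adjustment over all 11628. A fold change on this scale understates the change of low genes. Values are means ± SD, and fold changes carry SE. Alternatives were another pseudocount, no filter, RLE scaling, DESeq2 1.42.0, edgeR 4.0.16, only the 2 groups compared, a replicate block and each library left out. Leaving out both libraries that stood apart and removing the trend against gene span were added after seeing the data. In simulated data for IL-1ß against untreated (11528 genes), limma recovered 166 of 198 changed genes with 8 false calls, 30 of 59 at 1.5-fold and 70 of 73 at 2-fold. For the same simulated comparison edgeR recovered 164 of 200 with 6 false calls (13200 genes) and DESeq2 160 of 200 with 24 (15542 genes). Unlike the data, the simulation had 1 common spread for all genes and no library that stood apart. Same-number correlations between MSC-CM and PRP lysate libraries were 0.63, 0.26 and 0.42. Unlike-numbered pairs reached 0.39 (MSC-CM 2 with PRP lysate 3) and 0.47 (MSC-CM 3 with PRP lysate 2). The numbers were therefore not shown to pair libraries.

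Members and lists were chosen with earlier results of these data known. Genes given per library were MCM2, MCM5, PCNA, RRM2, TOP2A, CDK1 and CCNB1 (with MKI67, not analysed here) and, in IL-1ß against untreated and each OT against IL-1ß, the 2 replication and 2 mitotic genes with the smallest adjusted p, ties going to the larger fold change. Other genes named beyond this rule, among them KIF2C, TPX2 and TK1, passed a test or were chosen after their values were seen. Figures were drawn with matplotlib 3.10.9.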

Additional observations from a re-analysis of the deposited data

How the results depend on the processing

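Of 530 fold changes with all libraries (53 genes in 10 comparisons), 18 passed the adjusted p of limma, and 0 reversed direction as called values under any alternative run. For MSC-CM against untreated, where 12 passed and 0 were also past 2-fold, dropping the fold threshold gave 12, DESeq2 gave 1 past 2-fold, and a fit of the 2 groups alone gave 3 past 2-fold and 40 by adjusted p. The adjusted p alone was passed by 5 in edgeR and by 0 to 0 with 1 library left out, so each of the 6 libraries ended all 12 calls. For PRP lysate against untreated, where 6 passed, dropping the fold threshold gave 6, RLE scaling 2, edgeR 2, the 2 groups alone 0, and leaving out 1 library 0 to 13, with 13 without PRP lysate 2, 1 without PRP lysate 1, 3 without untreated 3, and 0 without PRP lysate 3, untreated 1 or untreated 2. For IL-1ß against untreated DESeq2 gave 4 and leaving out both libraries that stood apart gave 10. For ACS against untreated DESeq2 gave 1 and the 2 groups alone 2 (1.32% of all genes higher). For PRP lysate against MSC-CM leaving out 1 library gave 0 to 1 and leaving out both 8. For ACS against MSC-CM the 2 groups alone gave 18. The cause of these shifts was not tested. A pseudocount of 0.1 changed none of the 530 results, and no filter on low values ended 4 calls.

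With a replicate block, MSC-CM and PRP lysate against untreated each gave 0 genes past the adjusted p. Comparisons with ACS could not be fitted with it, because the ACS titles carry no replicate number. Over 18 same-numbered pairs of libraries the correlation of deviations from group means ran from -0.77 to 0.63, and 11 exceeded 0.1, so the numbers did not pair the untreated or IL-1ß libraries with others. Between MSC-CM and PRP lysate, whose donors the study describes as the same horses, all 3 exceeded 0.1, at 0.63, 0.26 and 0.42, and that comparison had 0 genes past the adjusted p with and without the block. Unlike-numbered pairs of these groups reached 0.39 (MSC-CM 2 with PRP lysate 3) and 0.47 (MSC-CM 3 with PRP lysate 2). The numbers were therefore not shown to pair these libraries either.

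In data simulated for IL-1ß against untreated, limma recovered 30 of 59 genes changed by 1.5-fold, and smaller changes were not simulated.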

Other observations

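Most pairs of the 53 genes were positively correlated across libraries. Pairs of other genes were not examined, so these values have no background. The first principal component held 55.4% of the variance over all genes tested. Over their 1378 pairs the Pearson correlation of log2(CPM + 1) across the 15 libraries had a median of 0.648 and ran from -0.643 to 0.986, and 91.3% of the pairs were above 0. Without IL-1ß 3 and PRP lysate 1 the median was 0.779, at 0.813 for the 351 mitotic pairs and 0.750 for the 325 replication pairs, and the lowest pair was at -0.172. These are descriptions: the points share libraries and fall into 5 groups, so part of each correlation is the difference between groups.

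PRP lysate 1 held the highest level of 24 of the 53 genes and MSC-CM 2 that of 17, while untreated 2 held the lowest of 19, IL-1ß 3 of 16 and untreated 1 of 15.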
